A study of Drosophila melanogaster with 9 samples.

Results

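The nuclear-encoded subunits of oxidative phosphorylation were examined in heads of adult flies carrying 2 alleles of kdm5. The KDM5 protein binds chromatin and demethylates histone H3 by means of a Jumonji C (JmjC) domain. The groups were kdm5[A512P], with a single amino acid change, kdm5[JmjC*], whose demethylase is inactive, and wild type (WT), with 3 libraries each of messenger RNA from whole heads of flies aged 3 to 5 days, all untreated and kept on standard food. The labels give neither the sex of the flies, nor the genetic background of the alleles, nor whether replicates were collected from different flies. The p-values thus reflect only how much these libraries vary, and that variation may be technical. Members were the genes whose symbol in both tables begins with the name of a subunit (ATPsyn, ND-, COX, UQCR, RFeSP, SdhA to SdhD or Cyt-c) and which do not lie on the mitochondrial genome. This gave 85 of the 17478 genes, 40 of complex I, 6 of complex II, 11 of complex III, 11 of complex IV, 15 of complex V and 2 cytochrome c genes.

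Oxidative phosphorylation makes most of the ATP of neurons, photoreceptors and muscle. Complexes I and II pass electrons from NADH and succinate to ubiquinone, complex III passes them to cytochrome c and complex IV to oxygen, and complex V, the ATP synthase, makes ATP from the proton gradient that complexes I, III and IV build up. All complexes except complex II combine subunits encoded in the nucleus with subunits encoded in the mitochondrial genome, so their assembly draws on both genomes.

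Each gene is described by its mean normalized count over all libraries and by the authors' log2 fold change with its standard error (SE), mutant over WT, from a DESeq2 fit across all genes. A gene with an adjusted p under 0.05 (Benjamini-Hochberg over all tested genes) is called higher or lower. The tables give no values per library, so group levels and the depth of single libraries are not given here. No SE exceeded 0.231 and the fold changes are shrunken, so changes of weakly expressed genes are understated. The mean normalized counts of all genes summed to 35167778, of which the 85 members took 1.19%.

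The members fell into 2 sets by level. A set of 63 had mean normalized counts from 604 (ND-MWFE) to 62097 (ATPsynbeta), and the other 22 had at most 37.1. Of the 22, 20 were paralogues, named by an added L, or Cyt-c-d beside Cyt-c-p, and the other two were ND-MNLL and ND-B8. ND-B8 had a mean normalized count of 2.16, and 15.4% of its exon bases lie opposite Gs1l. The reason for its low count was not tested. The authors' deposited tables list ND-MNLL, ND-20L and ND-B14.5AL at 0. ND-MNLL (FBgn0029971; BDGP6.54, X:7893053-7893798, protein coding, minus strand) shares all of its exon bases on the same strand with CG45089, which is also listed at 0, and how reads of shared exons were counted is not given. Of the 19 paralogues with a matching main gene, the one nearest to it in level was UQCR-11L, with 69.2 mean normalized counts per kb of exon, against 1697 for UQCR-11. COX7AL had 13.9 per kb, against 7896 for COX7A, and the cytochrome c gene Cyt-c-d, known for its role in sperm development, had 44.3 per kb, against 11396 for Cyt-c-p. Together the 22 weak members had 159.5 of the 419086 mean normalized counts of all members, so their part in the summed level was small. In each comparison 72 members were tested, the 63 abundant ones and 9 of the 22 weak ones; the other 13 have no adjusted p.

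Among abundant members, levels per length differed between complexes. The median was 7901 mean normalized counts per kb for complex V, 7820 for complex IV, 6033 for complex III, 4327 for complex II and 3067 for complex I. Within complex V, ATPsynbeta, the catalytic subunit, had 26025 per kb and ATPsynC, which forms the rotor ring in the membrane, had 24497 per kb. Both subunits are present in several copies per enzyme, and the next of the complex under the naming rule, the stalk subunit ATPsynO, had 9973 per kb. The alpha subunit gene, blw, lies outside the rule and is left out of this ranking. The further subunits outside the rule, of all complexes, reached 21211 per kb. ATPsyndelta, a subunit of the central stalk, was the lowest abundant member of complex V per kb, at 1407 over a summed exon length of 3817 bases. By mean normalized count it was not the lowest, at 5372 against 4812 for ATPsynE. The length sums all possible exons of a gene and can exceed that of the transcripts present, which limits rankings per kb. The 7 abundant subunits of complex IV ran from 5421 (COX7C) to 10418 per kb (COX6B), while the 32 of complex I ran from 716 (ND-MWFE) to 10738 per kb (ND-MLRQ).

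**Figure D1:**
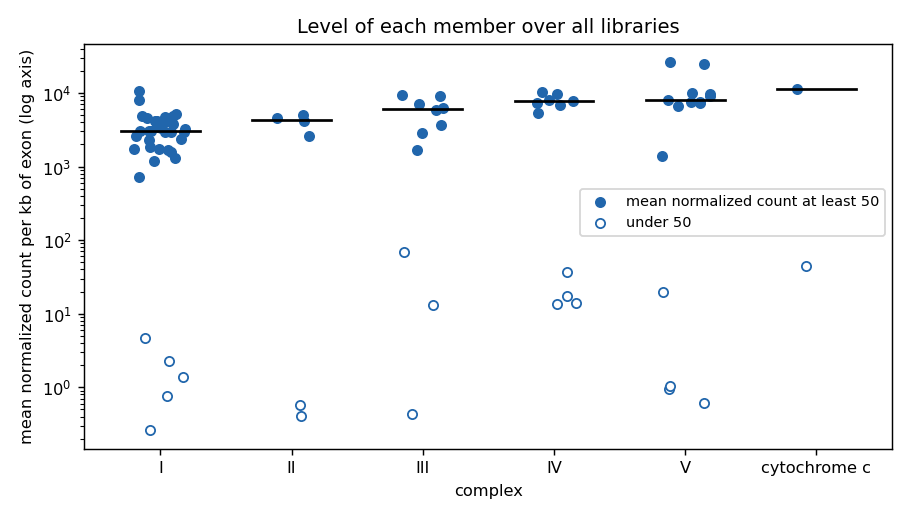
Level of each member, as the mean normalized count over all libraries per kb of summed exon length (log axis), by complex; filled points have a mean normalized count of at least 50, open points less, and black lines are medians of the filled points. The abundant members of complexes IV and V have medians of 7820 and 7901 per kb, above the 3067 of complex I; the 3 members listed at 0 cannot be drawn on this axis.

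In A512P heads the subunit mRNAs lay slightly below WT. Of the 72 tested members, 9 fell and 0 rose: SdhA, ND-49, ND-51, ATPsynE, ND-75, Cyt-c1, SdhB, ND-13B and ATPsynC. At an unadjusted p under 0.05, 17 were lower and 0 higher by the authors' DESeq2 test. The called share of 12.5% is near the background, since 10.8% of all 11608 tested genes were called lower and 10.2% higher. Of the 6339 genes with at least 500 mean normalized counts, 15.3% were called lower and 8.53% higher. The direction was more uniform than the calls: 61 of the 63 abundant members had a log2 fold change below 0, against 49.4% of all tested genes and 56.0% of those with a count of at least 500. The median over the 72 tested members was -0.14, beside 0.0027 over all tested genes. In heads, fewer cells of an energy-demanding type and less RNA per cell cannot be told apart.

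Complex II, which also serves the citric acid cycle, held the A512P member with the smallest adjusted p. SdhA, its flavoprotein (FBgn0261439), had a log2 fold change of -0.32 ± 0.063 in the authors' deposited table (SE, adjusted p = 1.21e-05) at a mean normalized count of 11370. SdhB, the iron-sulfur subunit, stood at -0.24 ± 0.083 there (adjusted p = 0.0226). In the authors' deposited table the membrane anchors SdhD and SdhC were at -0.26 ± 0.11 and -0.072 ± 0.11 (adjusted p = 0.0631 and 0.699). Both subunits that passed belong to the soluble, catalytic part of the complex. The values do not separate that part from the anchors, since SdhD lay below SdhB but had a larger SE.

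Complex I contributed 4 of the 9 falls, and 3 of those 4 belong to the 7 nuclear core subunits, which carry the electron path. The falls were 12.1% of its 33 tested members and 4.0% of its 25 abundant accessory subunits. Both shares were below the 15.3% of genes with at least 500 mean normalized counts. ND-49, next to the quinone site, was at log2 -0.26 ± 0.064 (adjusted p = 6.86e-04), ND-51, which binds NADH and flavin, at -0.25 ± 0.065 (adjusted p = 0.00134) and ND-75, the largest iron-sulfur subunit, at -0.23 ± 0.064 (adjusted p = 0.00336) in the authors' deposited table. The other four core subunits, ND-30, ND-23, ND-20 and ND-24, had log2 fold changes of -0.19, -0.18, -0.14 and -0.075 there and did not pass. Of the 25 abundant accessory subunits 1 fell, ND-13B (-0.31 ± 0.11, adjusted p = 0.033, the authors' deposited table). The medians were -0.19 for the core and -0.080 for the accessory subunits, with median SEs of 0.078 and 0.108. The core subunits thus also had the smaller error. All 32 abundant members of the complex had values below 0, with ND-MWFE nearest to 0 at -0.016 in the authors' deposited table.

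Complex III had 1 fall among 10 tested in A512P, Cyt-c1, the heme-bearing cytochrome c1 (-0.26 ± 0.078, adjusted p = 0.00555, the authors' deposited table). UQCR-Q had the lowest value of the complex's abundant members, at -0.29 ± 0.14 (adjusted p = 0.118, the authors' deposited table). UQCR-11 had the highest value of all abundant members, at 0.15 ± 0.12 (adjusted p = 0.423, the authors' deposited table). In complex IV 0 of 11 tested members passed, nor did any reach an unadjusted p of 0.05 by the authors' DESeq2 test; the 7 abundant ones ran from -0.17 (COX5A) to 0.075 (COX7C). In complex V 2 of 12 fell, ATPsynE, a small subunit of the membrane part (-0.32 ± 0.090, adjusted p = 0.00298), and ATPsynC (-0.20 ± 0.075, adjusted p = 0.0414, the authors' deposited table). In the authors' deposited table, ATPsynbeta was at -0.15 ± 0.075 (adjusted p = 0.132), ATPsynF, nearest to 0 in the complex, at -0.026, and the soluble electron carrier Cyt-c-p at -0.21 ± 0.095 (adjusted p = 0.106).

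**Figure D2:**
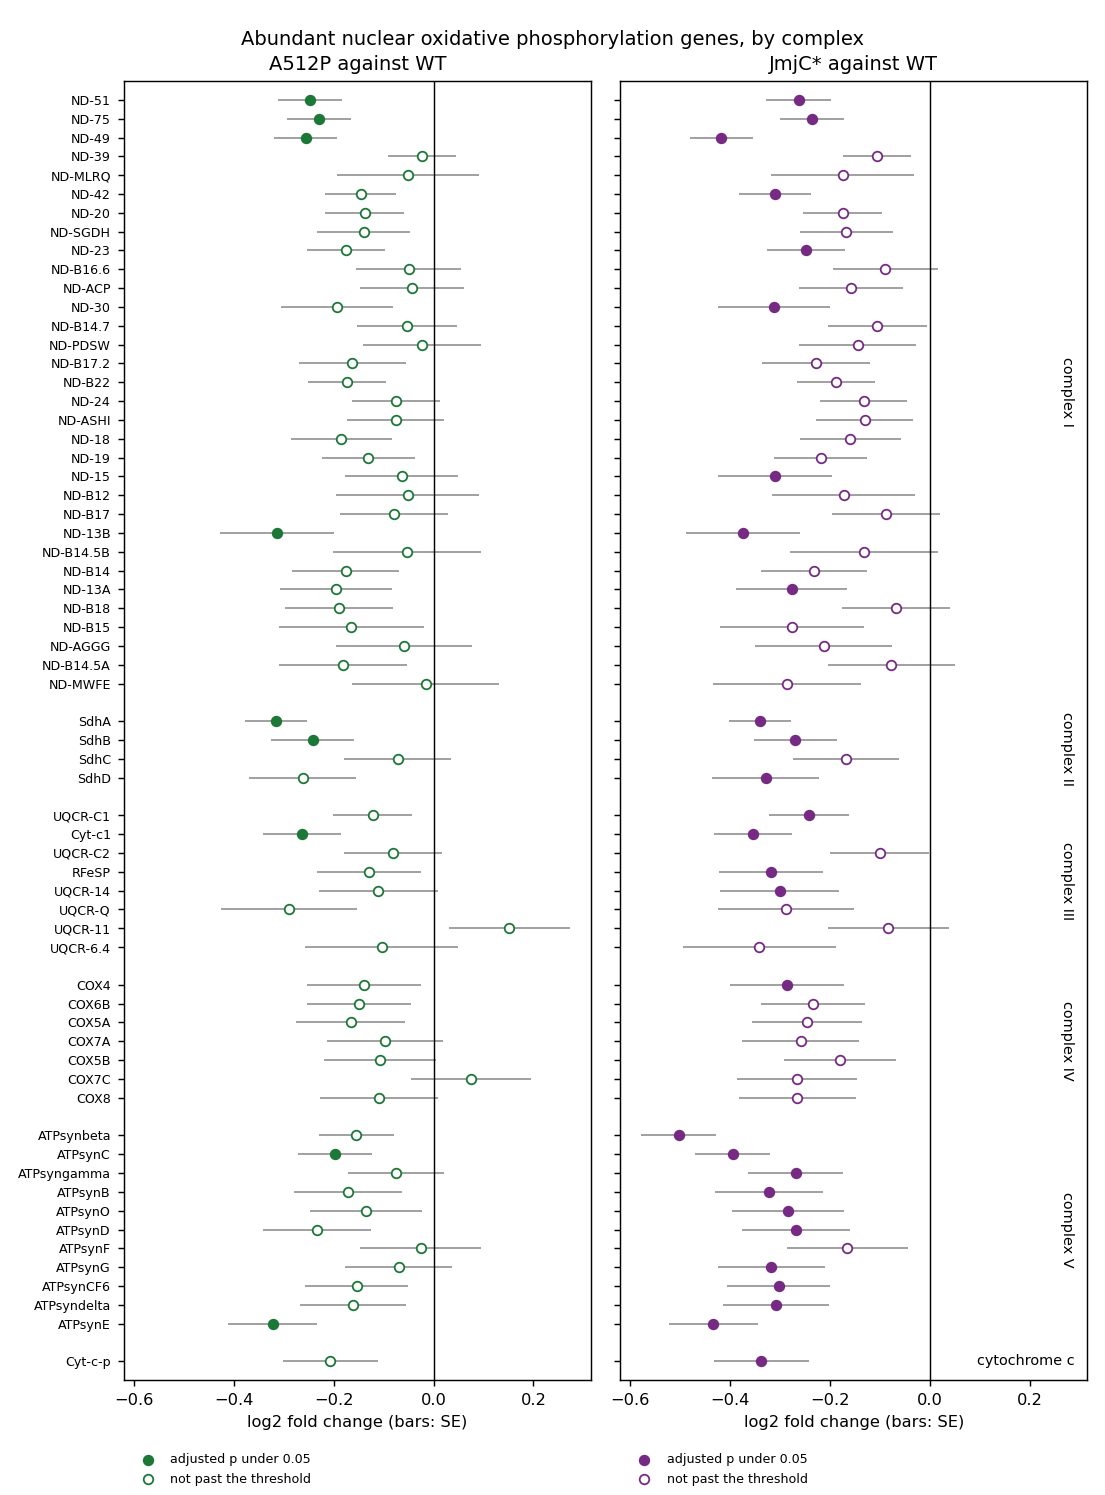
Log2 fold change, mutant over WT, of the 63 abundant members in the authors' tables, A512P left and JmjC* right, grouped by complex and ordered by mean normalized count within each; bars are 1 SE and filled points have an adjusted p under 0.05. In A512P 61 of 63 values lie below 0 and 9 are filled, while in JmjC* all 63 lie below 0 and 28 are filled.

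In JmjC* heads the subunit mRNAs were lower than in WT across all complexes, most often in complex V. Of the 72 tested members 28 fell and 1 rose, and all 63 abundant members had a log2 fold change below 0. The share called lower was 38.9%, above the 14.6% of all 11898 tested genes (14.2% were called higher). It was also above the 21.0% of genes with at least 500 mean normalized counts (13.1% were called higher). That background is not matched in level: its median was 753 mean normalized counts per kb, against 4518 for the abundant members. The median over the 72 tested members was -0.24, a 1.18-fold lower level, beside 0.011 over all tested genes and -0.035 over those with a count of at least 500. The abundant members ran from -0.50 (ATPsynbeta) to -0.068 (ND-B18), so even the lowest value stood for a modest change, of 1.42-fold on the shrunken scale.

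Complex V gave the most calls, with 10 of its 11 abundant members lower and only ATPsynF, of the membrane part, not past the threshold (-0.17 ± 0.12, adjusted p = 0.323, the authors' deposited table). ATPsynbeta (FBgn0010217; BDGP6.54, 4:1031484-1034917, protein coding, plus strand) had a log2 fold change of -0.50 ± 0.075 (adjusted p = 7.78e-10, the authors' deposited table). In the authors' deposited table, ATPsynE was at -0.43 ± 0.090 (adjusted p = 1.69e-05) and ATPsynC at -0.40 ± 0.075 (adjusted p = 2.13e-06). The central stalk subunits ATPsyngamma and ATPsyndelta were at -0.27 and -0.31, and the peripheral stalk subunits ATPsynB, ATPsynCF6, ATPsynO and ATPsynD at -0.32, -0.30, -0.28 and -0.27, in the authors' deposited table. ATPsynG, also of the membrane part, was at -0.32 there. Every functional part of the enzyme was therefore among the falls. The exons of ATPsyndelta overlap those of CG2962 on the opposite strand over 35.6% of their bases, and whether counting used the strand is not stated in the labels.

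In complex II 3 of 4 tested members fell in JmjC*, SdhA (-0.34 ± 0.063, adjusted p = 1.12e-06), SdhD (-0.33 ± 0.11, adjusted p = 0.0106) and SdhB (-0.27 ± 0.083, adjusted p = 0.0066, the authors' deposited table), while SdhC stood at -0.17 ± 0.11 (adjusted p = 0.244). In complex III 4 of 10 fell: Cyt-c1 (-0.35 ± 0.078, adjusted p = 5.60e-05), RFeSP, the Rieske iron-sulfur protein (-0.32), UQCR-14 (-0.30) and UQCR-C1, a core protein (-0.24), in the authors' deposited table. The other core protein, UQCR-C2, was at -0.10 ± 0.099 there and did not pass. All exon bases of UQCR-14 lie opposite CG32576, so its value is uncertain. In the authors' deposited table, Cyt-c-p was at -0.34 ± 0.095 (adjusted p = 0.00245), past the threshold, and Cyt-c-d, at a count of 37.1, at 0.31 ± 0.23 (adjusted p = 0.325).

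Complex I had 9 falls among 33 tested members in JmjC*, 5 of the 7 core and 4 of the 25 abundant accessory subunits. Of genes with at least 500 mean normalized counts, 21.0% were called lower in JmjC*. The share among the accessory subunits was below that, while those among the core subunits and among all tested members of the complex were above it. ND-49 (FBgn0039909; BDGP6.54, 4:568296-571554, protein coding, minus strand) had the lowest value at -0.42 ± 0.064 (adjusted p = 1.72e-09, the authors' deposited table). The core subunits ND-30, ND-51, ND-23 and ND-75 followed at -0.31, -0.26, -0.25 and -0.24 in the authors' deposited table. The accessory subunits that fell were ND-13B (-0.37), ND-15 (-0.31), ND-42 (-0.31) and ND-13A (-0.28) there. ND-B18, ND-B14.5A and ND-B17 lay nearest to 0, at -0.068, -0.077 and -0.088 in the authors' deposited table. The medians were -0.25 for the core and -0.17 for the abundant accessory subunits.

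In complex IV few members passed, although their values were like those of the other complexes in size. Of its 7 abundant members 1 fell, COX4 (-0.29 ± 0.11, adjusted p = 0.0448, the authors' deposited table), with a median of -0.26, beside -0.31 in complex V. That share of 14.3% was below the 21.0% of genes with at least 500 mean normalized counts. The other six had values from -0.27 (COX7C) to -0.18 (COX5B) with SEs of 0.10 to 0.12, and 6 of the 7 had an unadjusted p under 0.05. The only member that rose in either mutant was COX7AL, a weakly expressed paralogue of COX7A (FBgn0037579; BDGP6.54, 3R:8343669-8344310, protein coding, plus strand), with a log2 fold change of 1.0002 ± 0.19 in JmjC* (adjusted p = 1.82e-06, the authors' deposited table) at a mean normalized count of 8.18. In A512P it stood at 0.039 ± 0.18 (adjusted p = 0.921, the authors' deposited table). COX7A itself lies 2626 bases away on the other strand and was at -0.26 ± 0.12 in JmjC* (adjusted p = 0.0804, the authors' deposited table).

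Among weak members, the other eight tested passed in neither mutant, with SEs of 0.18 to 0.23. In A512P and JmjC* the authors' deposited tables give values of -0.36 and -0.37 for UQCR-11L, -0.22 and -0.30 for COX6AL, and 0.045 and 0.45 for COX4L. ATPsynepsilonL was at 0.18 and -0.073, Cyt-c1L at 0.0042 and 0.062, and ND-51L1 at -0.23 and 0.052 there. COX5BL, whose exons lie wholly opposite Trmt6, was at -0.075 and 0.10, and Cyt-c-d was at 0.12 in A512P. In JmjC*, where all 63 abundant members lay below 0, 6 of the 9 weak ones had values above 0, on counts that allow little precision.

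Whether a member was called followed its error as well as its fold change. Across the 63 abundant members the SE in A512P ran from 0.063 to 0.15 and was smaller for longer transcripts, with a Spearman rho of -0.58 against summed exon length and -0.55 against mean normalized count. Over the 6339 genes with a count of at least 500 these values were -0.28 and -0.30. The 9 members that fell in A512P had a median SE of 0.075 and a median exon length of 1590 bases, against 0.108 and 848.5 bases for the other 54. In JmjC* the 28 that fell had 0.099 and 1126.5 bases, against 0.108 and 796 bases for the other 35. The fold change itself was related to exon length only weakly, with a rho of -0.16 in A512P and -0.058 in JmjC*, and to mean normalized count with -0.21 in A512P and -0.35 in JmjC*. Over the 6339 genes the values against length were -0.19 in A512P and -0.11 in JmjC*, and those against count -0.20 in A512P and -0.22 in JmjC*. The points share libraries and depth, and these are descriptions across genes, which are not independent replicates.

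**Figure D3:**
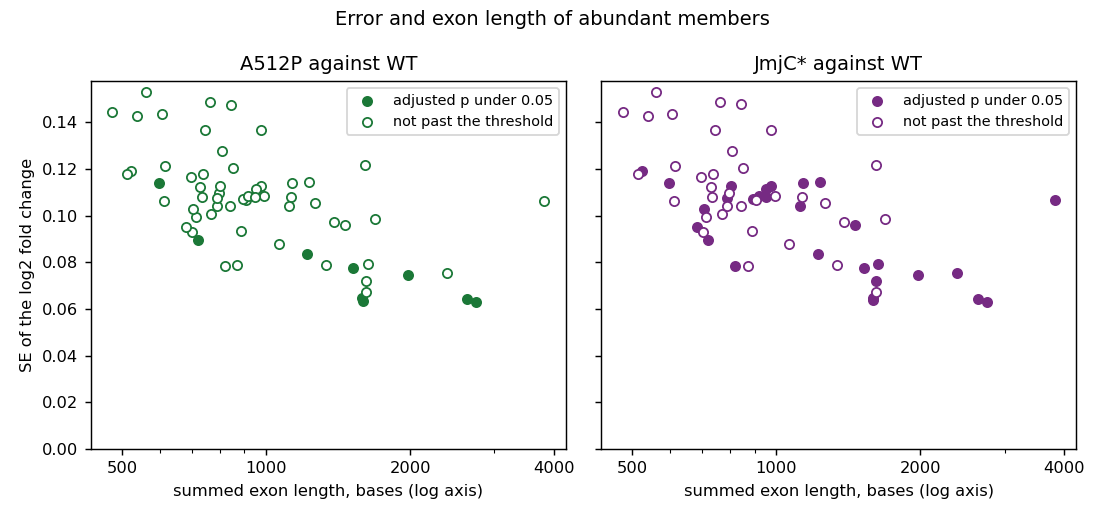
SE of the log2 fold change against summed exon length (log axis) for the 63 abundant members, A512P left and JmjC* right; filled points have an adjusted p under 0.05. The SE falls with length (rho of -0.58 in A512P), and the members called in A512P have a median exon length of 1590 bases, against 848.5 bases for the others.

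The 2 members on the small chromosome 4 were ND-49 and ATPsynbeta, which had the smallest adjusted p-values of all members in JmjC*. Of 101 tested genes on that chromosome, 29.7% were called lower in JmjC* (12.9% higher), with a median log2 fold change of -0.15, and 9.9% were called lower in A512P (18.8% higher), with a median of -0.033. Within 5000 bases of ND-49, the authors' deposited table puts Pur-alpha at -0.71 in JmjC* (adjusted p = 2.31e-07) and Ephrin at -0.22 (adjusted p = 0.169). Within 5000 bases of ATPsynbeta, it puts CaMKII at -0.36 (adjusted p = 0.0204), CG11076, which overlaps ATPsynbeta on the opposite strand, at -0.22 (adjusted p = 0.0497), PlexA at -0.18 (adjusted p = 0.155), Mpv17 at 0.090 (adjusted p = 0.616) and asRNA:CR44031, which lies opposite Mpv17, at 0.35 (adjusted p = 0.165). The chromosome was singled out after its values were seen. The part of the chromosome in the values of both members was not tested. On the other chromosomes the share of abundant members that fell in JmjC* was 10 of 13 on 3R, 7 of 13 on 2L, 4 of 13 on 3L, 3 of 11 on X and 2 of 11 on 2R. Of all tested genes 15.3% were called lower in JmjC* on 3R, 15.0% on 2L, 15.59% on 3L, 11.6% on X and 14.2% on 2R. The members' 18.2% on 2R was near that background, which includes weakly expressed genes. Over all chromosomes, 21.0% of genes with at least 500 mean normalized counts were called lower in JmjC*. The members' 27.3% on X and 30.8% on 3L were not far above that.

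The mutants were set against each other by subtracting log2 fold changes, A512P minus JmjC*, with the SE combined from both comparisons, a two-sided normal test and adjustment over 11608 genes. The WT libraries are shared, which makes that SE an upper bound. Of the 72 tested members 1 passed, COX7AL, beside 0.879% of all genes (0.414% lower and 0.465% higher in A512P), and 3 had an unadjusted p under 0.05. COX7AL was lower in A512P than in JmjC*, with a difference of -0.96 ± 0.26 (adjusted p = 0.0301), or 1.95-fold higher in JmjC*. ATPsynbeta was higher in A512P than in JmjC* by 0.35 ± 0.11 (adjusted p = 0.097, 95% interval 0.14 to 0.557). With 3 libraries in each group and WT shared, the errors of both estimates would correlate near 0.5. At a correlation of 0.5, ATPsynbeta passed by the same normal test (adjusted p = 3.32e-04). That setting called 3.7% of all genes (1.75% lower and 1.95% higher in A512P). COX7C was next, with a difference of 0.34 ± 0.17 (adjusted p = 0.936, or 0.0942 at a correlation of 0.5).

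The remaining members did not differ past the threshold, and the intervals do not show that the alleles act alike. Among the 63 abundant members, 59 had a higher value in A512P than in JmjC*, against 49.3% of all tested genes, with a median difference of 0.096 and a median SE of 0.15. The median difference was 0.15 in complexes III, IV and V, 0.069 in complex I and 0.047 in complex II, whose 4 members had differences from 0.025 to 0.096. ND-B18 and ND-B14.5A of complex I went furthest the other way, at -0.12 and -0.10.

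**Figure D4:**
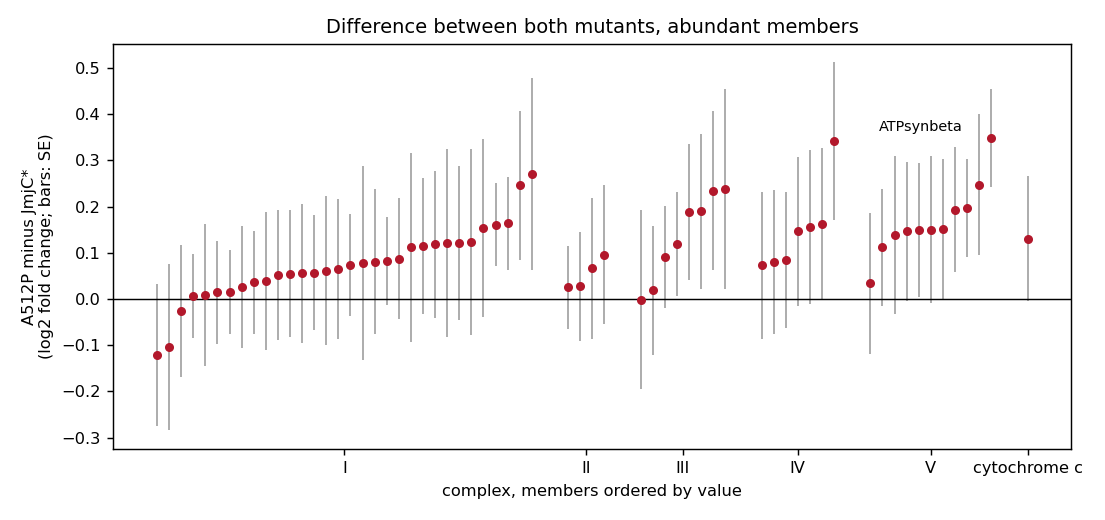
Difference of the log2 fold changes, A512P minus JmjC*, for the 63 abundant members by complex, ordered by value within each; bars are 1 SE, an upper bound. In all, 59 of 63 points lie above 0, with ATPsynbeta highest at 0.35, and none of these 63 has an adjusted p under 0.05 with that SE. At an error correlation of 0.5, ATPsynbeta passes by the same normal test (adjusted p = 3.32e-04).

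Further subunits carry symbols outside the naming rule. Of 13 such genes 10 were tested. In A512P 0 fell and 0 rose (1 lower and 0 higher at an unadjusted p under 0.05), and in JmjC* 5 fell and 0 rose, with medians of -0.11 and -0.28. Of all tested genes 10.8% were called lower in A512P and 14.6% in JmjC*. The gene blw, the alpha subunit that pairs with ATPsynbeta, was at -0.17 ± 0.069 in A512P (adjusted p = 0.0554) and -0.34 ± 0.069 in JmjC* (adjusted p = 9.25e-06) in the authors' deposited table. In complex III, ox was at -0.31 in JmjC*, and in complex IV cype was at -0.29 and CG7630 (current symbol COX7B) at -0.37, all called in the authors' deposited table. CG34172, whose current symbol is COX7AL2, was at -0.72 ± 0.16 in JmjC* (adjusted p = 9.57e-05, the authors' deposited table), the opposite direction to COX7AL. Its level, 443 mean normalized counts per kb against 7896 for COX7A, was well above that of any paralogue under the naming rule.

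The mRNAs of the mitochondrial genome, which encode the partners of these subunits, gave 0 falls and 0 rises among 13 in A512P (0 at an unadjusted p under 0.05) and 1 fall (7.69%, beside 14.6% of all tested genes) and 0 rises in JmjC*. Their medians were -0.010 in A512P and -0.32 in JmjC*, with a median SE of 0.20, above the 0.15 of the abundant nuclear member with the largest SE. The mRNA that fell was mt:CoIII, a core subunit of complex IV (-0.43 ± 0.17, adjusted p = 0.0366, the authors' deposited table). At an unadjusted p under 0.05, 5 were lower and 1 higher in JmjC*; the higher one was mt:ATPase8 (0.48 ± 0.23, adjusted p = 0.101, the authors' deposited table). In complex I the 7 mitochondrial mRNAs ran from -0.18 to 0.39 in A512P and from -0.51 to 0.22 in JmjC*. The 3 of complex IV ran from -0.035 to 0.082 in A512P and from -0.43 to -0.23 in JmjC*, and mt:Cyt-b of complex III was at -0.14 in A512P and -0.48 in JmjC* in the authors' deposited table. In complex V, mt:ATPase6 was at -0.13 in A512P and -0.46 in JmjC* there, and mt:ATPase8 was at 0.33 in A512P. The mitochondrial mRNAs of complexes I and V thus lay on both sides of 0 in JmjC*, where all abundant nuclear members lay below it. Those of complex I had SEs of 0.15 to 0.23 and a median of -0.32, beside -0.18 for its abundant nuclear members. Complex V has only 2 mitochondrial mRNAs. The values therefore do not show that mitochondrial mRNAs were less reduced than nuclear ones. The libraries were made from purified mRNA, per the labels' protocols.

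Enzymes and carriers that feed oxidative phosphorylation also lay mostly below WT. Of 12 citric acid cycle genes 5 fell and 1 rose in A512P, and 9 fell and 1 rose in JmjC*, with medians of -0.14 and -0.28. The shares called lower were 41.7% in A512P and 75.0% in JmjC*. Of genes with at least 500 mean normalized counts, 15.3% were called lower and 8.53% higher in A512P, and 21.0% and 13.1% in JmjC*. The gene kdn, citrate synthase, was at -0.31 in A512P and -0.50 in JmjC*, and Acon, mitochondrial aconitase, at -0.37 and -0.51, in the authors' deposited table. CG5028 and l(1)G0156, subunits of isocitrate dehydrogenase, were at -0.32 and -0.25 in A512P and at -0.45 and -0.36 in JmjC*, all called in the authors' deposited table. The exception was Sucb, a beta subunit of succinyl-CoA ligase, which rose by 0.47 ± 0.088 in A512P and 0.40 ± 0.088 in JmjC* in the authors' deposited table. The alternative beta subunit, skap, was at -0.12 in A512P, not past the threshold, and at -0.41 in JmjC* there. Nc73EF, a subunit of the oxoglutarate dehydrogenase complex, fell in both (-0.33 in A512P and -0.26 in JmjC*), and Scsalpha (-0.29), Mdh2 (-0.27) and CG6439 (-0.24) fell in JmjC*, in the authors' deposited table. Of 8 tested carriers and channels of the mitochondrial membranes 3 fell in A512P (37.5%) and 4 in JmjC* (50.0%), with 0 rises. They included sesB, the ADP/ATP carrier (-0.21 in A512P and -0.43 in JmjC*), and the phosphate carrier genes Mpcp (-0.22 and -0.29) and CG9090 (-0.27 and -0.57), in the authors' deposited table. The outer membrane channel gene porin was at -0.19 in A512P (adjusted p = 0.0573) and -0.33 in JmjC* (adjusted p = 1.67e-04, the authors' deposited table).

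**Figure D5:**
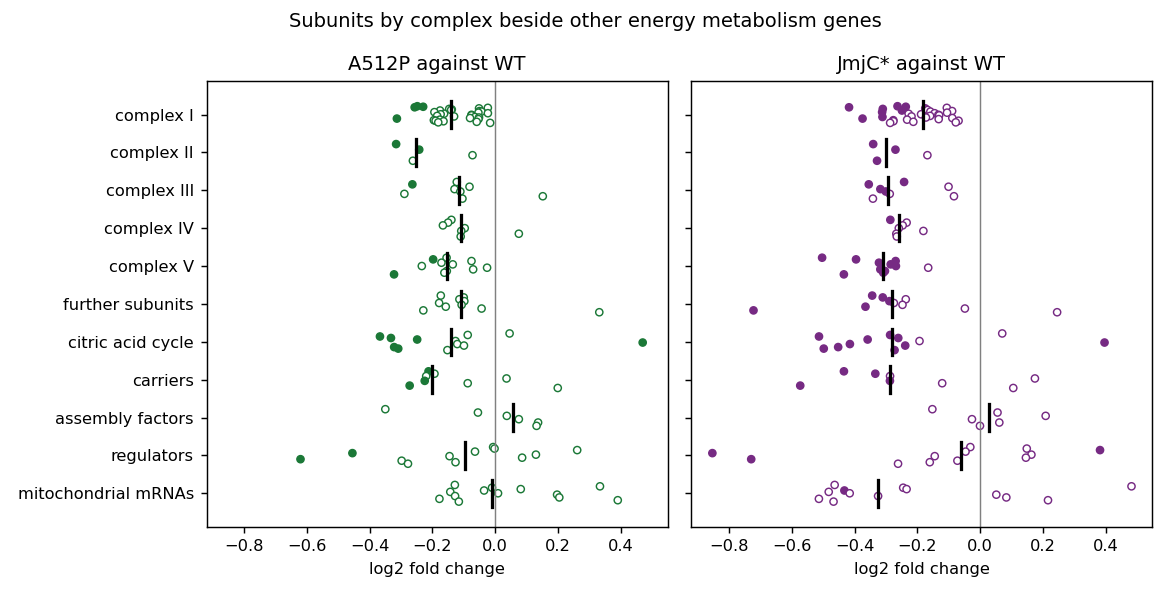
Log2 fold change, mutant over WT, of tested genes by group, A512P left and JmjC* right; the 5 complexes show abundant members, filled points have an adjusted p under 0.05 and black lines are medians. Subunits, citric acid cycle genes and carriers have medians below 0 in both mutants, and assembly factors have medians of 0.056 in A512P and 0.028 in JmjC*.

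Assembly factors gave no calls, and the regulators that passed included both directions. Of 6 assembly factors, which insert cofactors or build the complexes, 0 passed in either mutant (1 had an unadjusted p under 0.05 in A512P and 0 in JmjC*), with medians of 0.056 and 0.028. Of all tested genes 10.8% were called lower and 10.2% higher in A512P, and 14.6% and 14.2% in JmjC*. With so few factors, 0 calls says little about them. Among 12 tested regulators of nuclear and mitochondrial gene expression, 2 fell and 0 rose in A512P, and 2 fell and 1 rose in JmjC*. The 16.7% called lower in each mutant was near the share over all tested genes. The gene srl, which encodes Spargel, the fly relative of the mammalian PGC-1 coactivators of respiratory genes, was at -0.62 ± 0.12 in A512P (adjusted p = 2.86e-06) and -0.73 ± 0.12 in JmjC* (adjusted p = 1.22e-08) in the authors' deposited table. The mitochondrial DNA-binding protein gene mtSSB was at -0.45 ± 0.17 in A512P (adjusted p = 0.0389) and -0.85 ± 0.17 in JmjC* (adjusted p = 1.07e-05) in the authors' deposited table. Ets97D, the fly relative of the mammalian respiratory gene factor NRF-2 alpha, rose by 0.38 ± 0.11 in JmjC* (adjusted p = 0.00226) and stood at 0.26 ± 0.11 in A512P (adjusted p = 0.0648) in the authors' deposited table. ewg and ERR, also fly relatives of mammalian regulators, did not pass in either mutant, at -0.064 and 0.086 in A512P and -0.046 and 0.15 in JmjC* in the authors' deposited table.

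All markers of neurons, glia, photoreceptors, muscle, fat body and blood cells were read, with mean normalized counts from 3.99 (Fbp2) upwards and none listed at 0. The counts of calls below stand beside 10.8% of all tested genes called lower and 10.2% higher in A512P. In JmjC* these shares were 14.6% and 14.2%. Of 6 photoreceptor markers 5 fell and 0 rose in A512P and 2 fell and 0 rose in JmjC*, with medians of -0.24 and -0.14. In the authors' deposited table for A512P the falls were Arr1 (-0.34), ninaC (-0.27), ninaE (-0.24), trp (-0.23) and norpA (-0.23). In that for JmjC* they were trp (-0.37) and ninaC (-0.22).

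Of 12 muscle markers 2 fell and 1 rose in A512P and 4 fell and 1 rose in JmjC*, with medians of -0.036 and -0.19. The 16.7% called lower in A512P was near the 15.3% of genes with at least 500 mean normalized counts. In JmjC* the shares were 33.3% and 21.0%. Act79B, a muscle actin, was at -0.87 in A512P and -1.20 in JmjC* in the authors' deposited table, both called and further from 0 than any subunit that fell. The other falls in the authors' deposited tables were wupA, troponin I, in both mutants (-0.18 in A512P and -0.25 in JmjC*), and TpnC4 (-0.51) and Mlc2 (-0.25) in JmjC*. Prm, paramyosin, rose in both, at 0.53 in A512P and 0.32 in JmjC* in the authors' deposited table. The myosin heavy chain gene Mhc, with the highest count of the list, did not pass, at -0.15 in A512P and -0.23 in JmjC* in the authors' deposited table.

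Of 6 neuronal markers 2 fell in each mutant, with 0 rises and medians of -0.15 in A512P and -0.22 in JmjC*. These were Rdl (-0.37 in A512P and -0.41 in JmjC*) and nSyb (-0.27 in A512P and -0.24 in JmjC*) in the authors' deposited table. Of 6 glial markers 2 fell and 0 rose in A512P, and 4 fell and 1 rose in JmjC* (medians -0.094 and -0.19). Eaat1 was at -0.30 in A512P and -0.48 in JmjC*, and repo at -0.28 in A512P and -0.20 in JmjC*, all called in the authors' deposited table. In JmjC*, nrv2 (-0.19) and Gs2 (-0.18) fell and moody (0.42) rose there too. Of 8 fat body markers 1 rose and 0 fell in A512P, Obp99b (0.54, the authors' deposited table), and 0 passed in JmjC* (1 had an unadjusted p under 0.05 by the authors' DESeq2 test), with medians of 0.047 and -0.088. Of 5 blood cell markers 2 rose and 0 fell in each mutant, He (1.04 in A512P and 0.75 in JmjC*) and Hml (0.38 in A512P and 0.63 in JmjC*), in the authors' deposited table. The tables give no summed marker level per group, and the part of cell composition in the values of the subunits was not tested.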

How the data were processed

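Per the labels' protocols, 500 ng of total RNA per library went into a stranded mRNA kit, with 8 cycles of PCR and paired reads of 50 bases. The submitters' processing notes name STAR and DESeq2, with no version; the sources used here do not give the genome build, the annotation or whether counting used the strand. The 2 tables hold the authors' comparisons, A512P against WT and JmjC* against WT. The mean normalized count, a signal made by the authors, is per the file headers DESeq2's baseMean and is identical in both tables. Per the file headers, the authors give a log2 fold change, its SE, a Wald score, a p-value and an adjusted p-value; the score equalled the fold change over its SE to within 1.21e-13.

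No counts per library were used, so depth per library is unknown, and the authors' values were read as they stood; the direct comparison of both mutants (tested on simulated data), medians, counts, rank correlations and the alternative adjustments were computed from them (Python 3.11.15, scipy 1.17.1). Groups came from the library titles. Members with a mean normalized count of at least 50 are called abundant. Positions and overlaps are from the Ensembl release 115 annotation of BDGP6.54, where 84 of 85 members matched by gene ID, all on the same chromosome and 83 with the same exon length. Named members are those called in a comparison, extremes and the most abundant of each complex, and examples of paralogue pairs. Of the other lists and markers, called genes are named, with a few others of known role. The members and lists were chosen with earlier results of these data known.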

Additional observations from a re-analysis of the deposited data

Results flagged for a closer look

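COX7AL differed between the mutants by the direct test, with a difference of -0.96, A512P minus JmjC* (SE 0.26, adjusted p = 0.0301). Its mean normalized count was 8.18, and the difference is on the shrunken scale. Within 5000 bases, CG7352, which lies 3269 bases downstream on the same strand, was at log2 1.04 in A512P and 1.10 in JmjC* in the authors' deposited table, both called. DppIII, Arl2 and COX7A, also within that distance, did not pass in either mutant; DppIII, between COX7AL and CG7352, was at 0.067 in A512P and 0.11 in JmjC* in the authors' deposited table.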

How the results depend on the processing

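The number of members called in A512P ran from 6 (adjusted p under 0.01) to 12 (under 0.1) around the 9 reported, all lower, and stayed within 1.5 times under every alternative run. In JmjC* 29 members were called, and 14 at an adjusted p under 0.01, of which 13 were lower; under the other alternatives the number was 24 to 41. For the direct comparison, 1 member was called; the number was 0 at an adjusted p under 0.01, 0 with adjustment over genes with a mean normalized count of at least 50, 0 without paralogues under that count, 2 at an adjusted p under 0.1 and 2 with an error correlation of 0.5. In the alternatives that drop weak genes COX7AL is not tested. Centring on the median of all tested genes moved the values by 0.0027 in A512P and 0.011 in JmjC*. No direction reversed, and the medians per complex moved by less than the median SE of their members. Leaving out replicates, other normalizations and filters on raw counts were not run, since no values per library were used. No paired analysis was possible because the tables carry no columns per library. Of the 20 paralogues under a mean normalized count of 50, 9 had an adjusted p. Where a ratio could be formed, the main gene had from 24.5 (UQCR-11L) to 27347 (ATPsynbetaL) times the paralogue's count per kb. Both genes of a pair were read in the same libraries, so depth does not enter that ratio. Depth per library remains unknown.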
